A study of Drosophila melanogaster with 6 samples.

Results

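Localised maternal RNAs of the axis and germ plasm pathway were compared between Drosophila melanogaster embryos of the 2 groups of the series, GFP control and InR-DN. The members are the rows of the deposited gene table named bcd, osk, nos, grk, orb, pum, gcl, pgc, stau and exu, and all 10 were found among its 14862 genes. InR-DN embryos came from oocytes that expressed a dominant-negative insulin receptor, which blocks the normal receptor, and control embryos from oocytes that expressed green fluorescent protein. No source used here names the driver of these transgenes. Each group holds 3 samples of RNA from 200 embryos labelled 16 to 20 h, from flies kept on standard food with yeast paste. The study looked for genes of the progeny that respond to lowered insulin signalling in the maternal germ line. Nothing in the labels tells whether the 3 samples were separate crosses, and the p-values may therefore rest on technical spread.

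During oogenesis the nurse cells make RNAs that are carried into the oocyte and held at its poles, and local translation of these RNAs sets the axes and the germ line of the next generation. The RNA of bcd is held at the anterior pole and that of osk and nos at the posterior pole, while grk RNA lies beside the oocyte nucleus and marks the dorsal side. The products of orb, pum, stau and exu act on such RNAs. Much of this maternal RNA is known to be cleared from the somatic part of the early embryo, and germ plasm RNAs persist longer in the pole cells, the precursors of the germ line. The table holds no value for a single embryo sample, so each value below is one of the authors' fit over all libraries.

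No call was made for any of the localised maternal RNAs. Of the 10 members, 0 passed the edgeR likelihood ratio test of the authors' deposited table at a Benjamini-Hochberg adjusted p under 0.05, where 4.49% of all genes passed. Among the 8732 genes with an average of at least 1 CPM (reads per 1000000 of a library), the class that holds all 10 members, 4.10% passed. An unadjusted p under 0.05 was found for 0 members, against 8.66% of that class. Counts of 0 among 10 genes lie near these shares. The greatest difference was that of nos, 1.35-fold. The median of the 10 log2 fold changes taken from the authors' deposited table was 0.12, and that of the 6398 genes averaging at least 16 CPM was 0.02. On the positive side lay 9 of the 10 members, where 56.8% of the genes averaging at least 1 CPM were positive, and pgc alone was below 0. The sources used here do not name the numerator of the fold change, so the values tell the size of a difference and its side but not which embryos had more RNA.

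**Figure D1:**
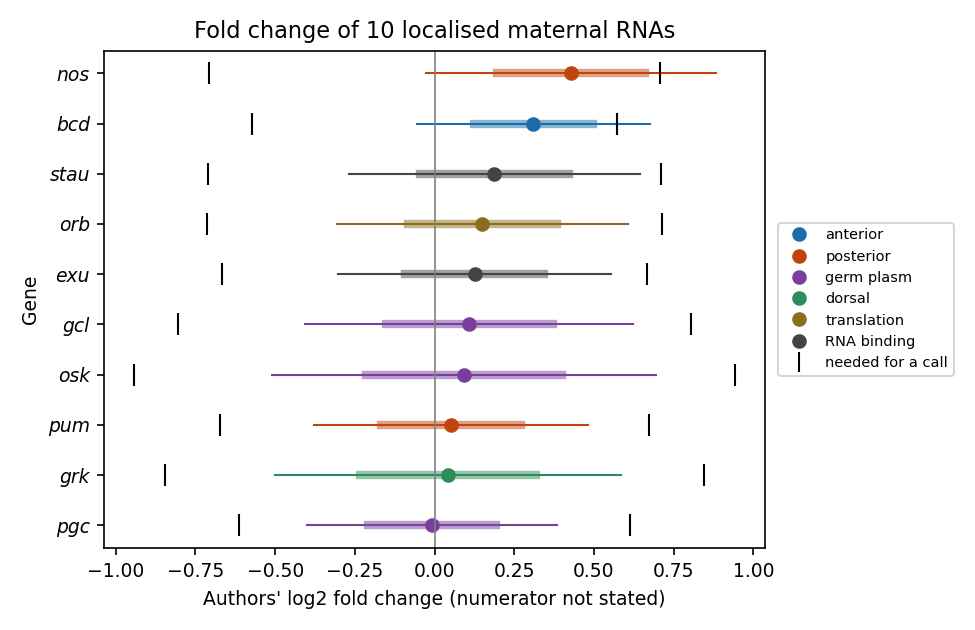
Log2 fold change of each member in the authors' deposited table (points, coloured by role), with 1 implied SE on each side (thick bars), its 95% interval (thin lines) and the difference that would have passed the edgeR threshold at that SE (black ticks). All 10 intervals cross 0 and all 10 points lie inside their ticks, with nos at 0.43 and pgc at -0.01 as the extremes.

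The anterior system is made up here of bcd and the RNA-binding proteins exu and stau. Bicoid, the homeodomain protein made from bcd RNA, patterns the head and thorax. The authors' deposited table gives bcd a log2 fold change of 0.31 ± 0.19 (implied SE), with an unadjusted p of 0.0964 and an edgeR adjusted p of 0.690. This implied SE, the size of the fold change divided by the root of the likelihood ratio, stands for the error, since no replicate values are given. Only 5.94% of the genes averaging at least 16 CPM had a smaller SE than bcd. The exu product is needed early in bcd RNA localisation, and its log2 fold change was 0.13 ± 0.22 (implied SE) by the authors' deposited table. Staufen, the double-stranded RNA-binding protein made by stau, anchors bcd RNA in the egg and carries osk RNA to the posterior. For stau the authors' deposited table has 0.19 ± 0.23 (log2 fold change and implied SE). Both exu and stau differed by less than their SE.

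Among the posterior genes, nos lay farthest from 0 and pum close to it. Nanos and Pumilio repress translation of hb RNA together, Pumilio by binding the RNA and Nanos as its partner. For nos the authors' deposited table lists a log2 fold change of 0.43 ± 0.23 (implied SE), an unadjusted p of 0.0648 and an edgeR adjusted p of 0.575. Its 95% interval, taken as 1.96 implied SEs on each side, ran from -0.03 to 0.88. A difference larger than that of nos, in either direction, was found in 5.80% of the genes averaging at least 16 CPM. The log2 fold change of pum was 0.05 ± 0.22 (implied SE) by the authors' deposited table, and 69.0% of those genes differed more. Between nos and pgc, the ends of the order, the log2 gap was 0.44 with an SE of 0.31 if the errors of the genes are taken as independent. Between nos and bcd it was 0.12 with an SE of 0.30, and each gap between neighbours in the order was smaller than its SE.

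The germ plasm genes osk, gcl and pgc lay close to 0. Oskar organises the germ plasm, and the site of its RNA is known to set where pole cells form. According to the authors' deposited table the log2 fold change of osk was 0.09 ± 0.31 (implied SE), the widest error of the members. The product of gcl is needed for pole cells to form, and gcl stood at 0.11 ± 0.26 on the same scale of the authors' deposited table. A small protein made from pgc keeps transcription silent in the pole cells. Its log2 fold change by the authors' deposited table, -0.01 ± 0.20 (implied SE), was the smallest difference of the members. Its 95% interval ran from -0.40 to 0.38, so differences from 0.758-fold to 1.31-fold were within the error. The edgeR adjusted p was 1 for osk, gcl and pgc.

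The dorsal signal grk and the translation regulator orb were also near 0. Gurken, a ligand of the epidermal growth factor receptor, signals from the oocyte to the follicle cells around it. For grk the authors' deposited table has a log2 fold change of 0.04 ± 0.28 (implied SE). The orb protein binds oocyte RNAs, osk and grk among them, and promotes their translation. By the authors' deposited table the log2 fold change of orb was 0.15 ± 0.23 (implied SE), and the edgeR adjusted p was 1 for grk and orb alike, as for 8 of the 10 members.

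Observed differences of moderate size in these genes would have passed the threshold. The weakest call of the authors' deposited table had a likelihood ratio statistic of 9.37, that is 3.06 implied SEs. At its own SE a member would have passed with a difference of 1.49-fold for bcd, 1.53-fold for pgc, 1.63-fold for nos and 1.92-fold for osk, and the median over the 10 members was 1.64-fold. These are observed differences, so a true difference of the same size could still go uncalled, as could smaller ones. All 10 of the 95% intervals held 0, and all 10 left out a 2-fold difference in either direction, their outer ends being 0.702-fold for osk and 1.84-fold for nos. The median implied SE was 0.23 for the members and 0.23 for the genes averaging at least 16 CPM.

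**Figure D2:**
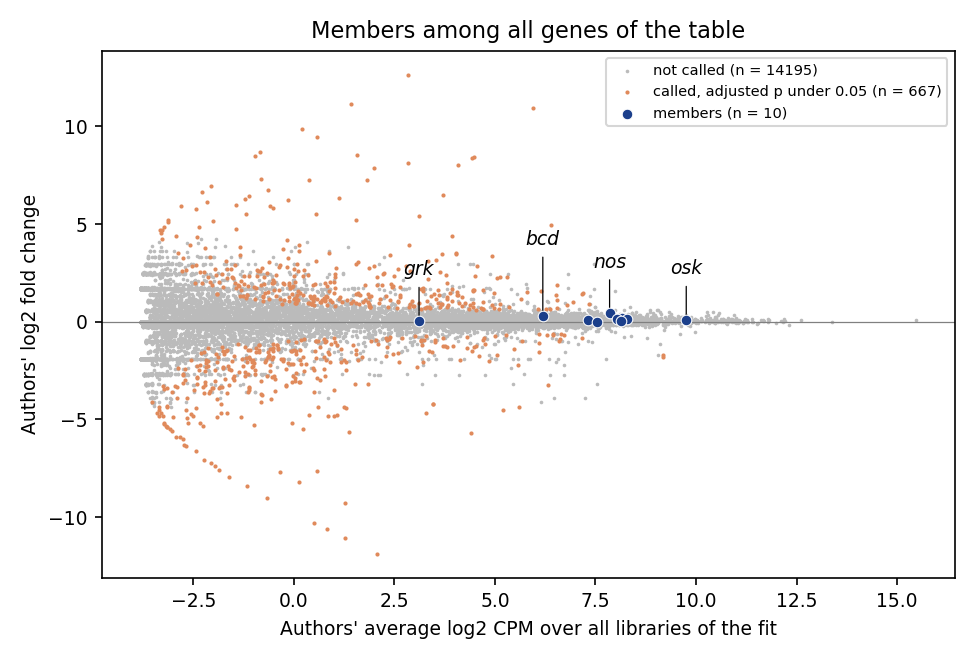
Log2 fold change (y axis) against average log2 CPM (x axis) for the 14862 genes of the authors' deposited table, with the 667 called genes in orange and the members in blue. The members lie along the zero line, 9 of them at an average of 73.0 CPM or more and grk at 8.64 CPM.

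The averages of 9 of the 10 members were over 16 CPM, but none of the averages is a level of the embryos. Single-read genes fall on 12 average levels, which gives 12 libraries in the authors' fit: 3 on each side of the fold change and 6 that do not enter it. The effective sizes of the 6 compared libraries, in units of 1000000 reads, ran from 23.4 to 40.5. Averaged over all 12 libraries, the authors' deposited table gives 865 CPM for osk, above 98.9% of all genes, 231 CPM for nos, 73.0 CPM for bcd and 8.64 CPM for grk. Per kilobase of the longest annotated transcript, osk led with an average of 302 CPM, followed by pgc with 152, exu with 118, nos with 98.2, gcl with 62.9 and stau with 54.3. The lowest averages per kilobase were those of orb with 29.6 CPM, bcd with 28.8, pum with 27.6 and grk with 5.03. No source used here says what the 6 other libraries are, and how much of these averages they hold cannot be read from the table.

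Limits for the compared libraries were wide for most members and narrowest for grk. As the lower limit serves the level whose counting noise equals the implied SE, and as the upper limit the level reached if every read of the gene fell in the compared libraries. For osk these limits were 0.474 CPM, or 14.8 reads in a library of mean size, and 1730 CPM. For nos they were 0.837 and 461 CPM, for bcd 1.29 and 146 CPM and for pgc 1.12 and 369 CPM. For grk they were 0.587 and 17.0 CPM. The lower limits of the 10 members ran from 14.8 to 40.3 reads per compared library, so each was read there. The ratio of the upper to the lower limit ran from 29.0 for grk to 3649 for osk. In RNA from pools of embryos, as these samples are labelled, fewer germ cells and less RNA per cell cannot be told apart.

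**Figure D3:**
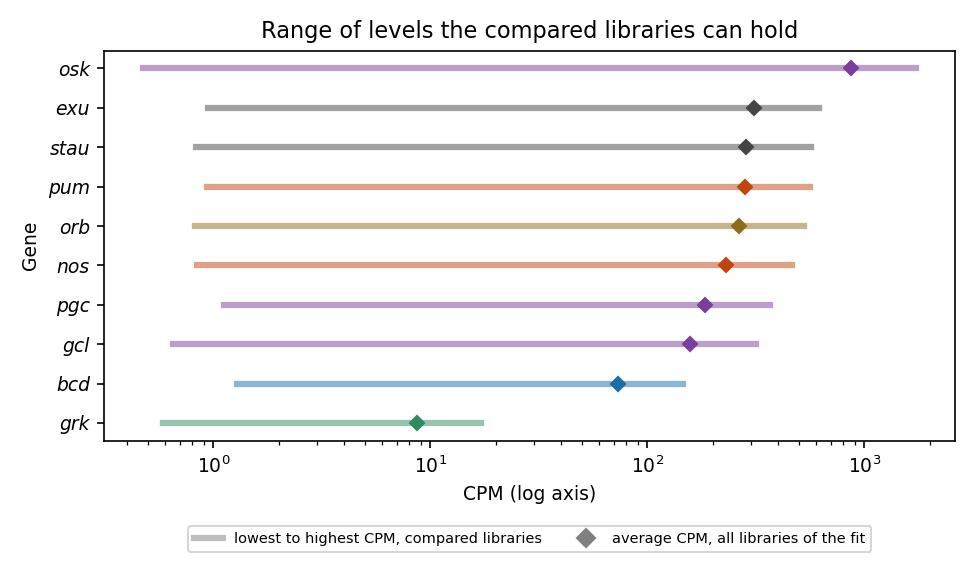
Lower and upper limit of each member's CPM in the compared libraries (bars, log axis), with the average CPM over all 12 libraries of the authors' fit (diamonds). The bar of grk spans 0.587 to 17.0 CPM and that of osk 0.474 to 1730 CPM, so the order of the diamonds need not be the order in the embryos.

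Several members share exon bases with other genes, and the sources used here do not tell whether reads were counted by strand. By the Release 6 gene models 6 of the 10 members share exons with another gene, and bcd, stau, orb and pum do not. Most affected was osk, where a noncoding RNA annotated at the same locus and on the same strand, lncRNA:osk, shares 78.5% of its exon bases. No row for lncRNA:osk was found by name in the authors' deposited table. A further 5.65% of the osk exon bases lie opposite CR44020, which averaged 1.39 CPM with a log2 fold change of 0.36 there. For pgc 46.9% of the exon bases lie opposite exons of T3dh, which averaged 6.10 CPM with a log2 fold change of 0.07 by the authors' deposited table. For grk 12.3% lie opposite Akap200, a gene far above it at an average of 1037 CPM, whose log2 fold change was 0.02 by the authors' deposited table. For nos 15.9% are shared with CG11779 and CG42358 on the opposite strand, whose log2 fold changes were 0.06 and 0.22 by the authors' deposited table. For exu and gcl the shares were 12.1% and 1.43%. No member had the same average and fold change as another gene, to 6 and 4 decimals.

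No call was made among the genes that act with the members either. Of 89 different genes in 5 lists by role, none of them members, 0 passed the edgeR threshold on either side. The shares over all genes were 2.30% (positive) and 2.19% (negative). An unadjusted p under 0.05 was found for 5 of the 89, against 8.66% of the genes averaging at least 1 CPM. The 89 hold 2 gradient targets without a read in the compared libraries, which could not be called, and 6 with an implied SE over 1. The germ plasm assembly and pole cell list had 0 of 24 called, with a median log2 fold change of 0.04 by the authors' deposited table. Its smallest p was that of mago, a subunit of the exon junction complex needed for osk RNA localisation, at -0.32 ± 0.18 (log2 fold change and implied SE from the authors' deposited table). The piRNA pathway gene mael, at 0.32 ± 0.27, and tud, a scaffold of the germ granules, at 0.27 ± 0.28, came next on that scale. The RNA helicase gene vas, a germ cell marker, stood at 0.02 ± 0.19.

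RNA transport and anchoring genes had 0 of 20 called and a median log2 fold change of 0.12, the same to 2 decimals as the members. The gene fs(1)K10, needed to restrict grk RNA to the dorsal corner, had the smallest p of this list, at 0.61 ± 0.22 (log2 fold change and implied SE from the authors' deposited table), an unadjusted p of 0.00591 and an edgeR adjusted p of 0.109. The motor genes Dhc64C, a dynein heavy chain, and didum, a class V myosin, stood at 0.35 ± 0.20 and 0.37 ± 0.23 on that scale. Translational control and RNA decay genes had 0 of 20 called, at a median log2 fold change of 0.09. There aret, which encodes the osk repressor Bruno, stood at 0.37 ± 0.24, plu, a regulator of the early nuclear cycles, at -0.23 ± 0.23 and wisp, a poly(A) polymerase of the oocyte, at 0.22 ± 0.24 (log2 fold change and implied SE from the authors' deposited table).

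Gurken and Egfr signalling genes had a median log2 fold change of 0.28 by the authors' deposited table, with 0 of 13 called and 3 at an unadjusted p under 0.05, a threshold that 8.66% of the genes averaging at least 1 CPM passed. Of these 3, pip, the sulfotransferase gene that Gurken signalling shuts off on the dorsal side, stood at 0.63 ± 0.24 (log2 fold change and implied SE from the authors' deposited table), with an edgeR adjusted p of 0.148. The receptor gene Egfr stood at 0.43 ± 0.21 with an edgeR adjusted p of 0.423, and mirr, a homeodomain gene of the follicle cells, at 0.42 ± 0.21 with 0.481. The ligand gene grk was at 0.04 ± 0.28 on the same scale.

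Most early targets of the maternal gradients had few or no reads in the compared libraries. Of 12 such genes 0 were called, 2 (ems and tll) had no read there and 6 had an implied SE over 1. Their averages over all 12 libraries were not all low. With 38.2 CPM for ems and 7.70 CPM for tll, the reads of these 2 genes lay in the 6 libraries not compared. Among the 6 genes with an SE over 1, the averages ran from 3.03 CPM for eve to 105 CPM for Kr. No fold change is given for these 8 genes, and no median for the list. Absence of reads still allows 0.0160 CPM over the compared libraries, the level of 3 reads, and this covers counting error only. The gap gene gt stood at 1.15 ± 0.57 (log2 fold change and implied SE from the authors' deposited table), with an unadjusted p of 0.0426 and an edgeR adjusted p of 0.446. For btd and Kr, next by p, the unadjusted p was 0.0609 and 0.0626 in the authors' edgeR fit. The mother is known to supply RNA of hb, which Nanos and Pumilio repress, and of cad, which Bicoid represses, and these genes stood at 0.06 ± 0.18 and 0.02 ± 0.23 on that scale.

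**Figure D4:**
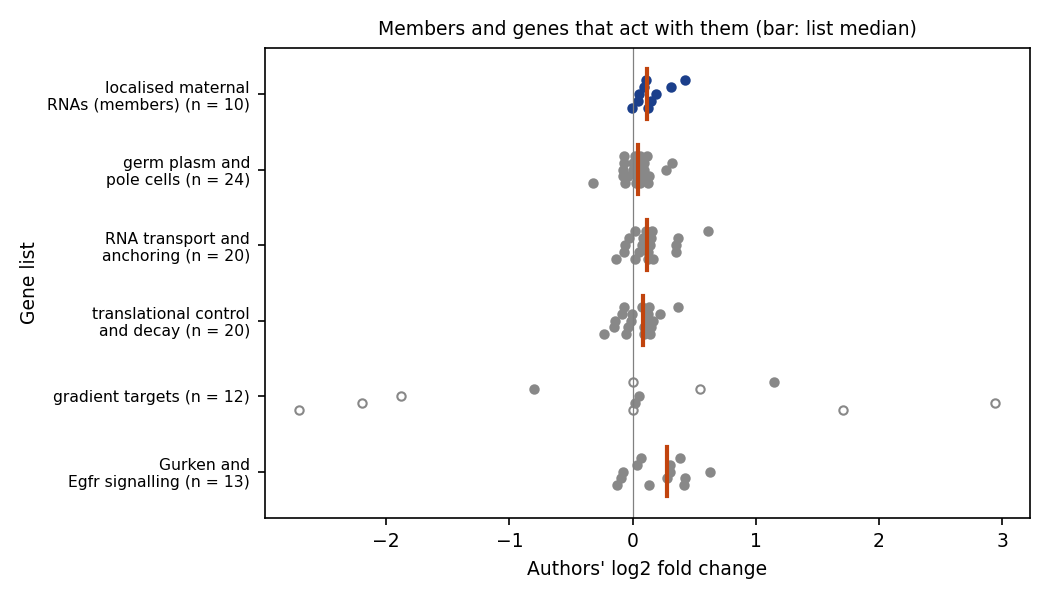
Log2 fold changes of the authors' deposited table for the 10 members (blue) and for the genes of 5 lists by role (grey), with the median of each list as an orange bar. Open circles are genes with an implied SE over 1 or with no read in the compared libraries, and the gradient targets, which hold all of these, have no median drawn. The members' median is 0.12 and that of the Gurken and Egfr list is 0.28.

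Markers of the labelled stage were checked beside these values. InR, the targeted gene, stood at 0.25 ± 0.26 (log2 fold change and implied SE from the authors' deposited table), which does not separate the groups. Of 10 larval cuticle markers, genes that late embryos are known to transcribe strongly, 6 had no read in the compared libraries, and the upper limits ran from 0.0160 to 0.281 CPM. So few reads do not match that known transcription at the labelled 16 to 20 h. Whether the compared libraries are of the labelled age was not tested. Upper limits of 10 muscle markers ran from 1.25 to 126 CPM, with a median of 4.47 CPM. Of these 10, 0 were called and 3 had an unadjusted p under 0.05, against 4.10% and 8.66% of the genes averaging at least 1 CPM. All 10 lay on the positive side, where 56.8% of those genes lay. The median log2 fold change of the 10 muscle markers was 0.45 by the authors' deposited table. The upper limits of 6 neuron markers ran from 0.183 to 261 CPM, the latter for elav, and their median was 0.818 CPM. For 13 eggshell and yolk markers, which belong to the ovary and the female, the upper limits ran from 496 to 10134 CPM but the lower limits only from 3.02 to 26.2 reads per compared library, and 0 of 13 were called. All 5 midgut markers, a list chosen with earlier results known, were called on the positive side, where 2.30% of all genes were, with log2 fold changes from 2.85 to 8.43 by the authors' deposited table. Not every digestive gene lay on that side: the trypsin genes etaTry and lambdaTry and the lysozyme gene LysX, named after their values were seen, were called at -1.80, -0.94 and -2.07 on the same scale of the authors' deposited table. The part of tissue makeup or of the embryos' age in the members' values was not tested.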

How the data were processed

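RNA of 6 embryo samples was sequenced. The labels' protocols name TriPure reagent for the RNA and a TruSeq stranded total RNA kit for the libraries, and the sample descriptions name polyA selection. FastQC, Bowtie and TopHat are listed per the submitters' processing notes. Counter, filters, strand setting and genome build: not given in the sources used here, so no coordinates are printed. Per the file headers, the deposited file is the authors' edgeR likelihood ratio test (glmLRT), whose fit gave the log2 fold change and the log2 average CPM. The likelihood ratio statistic deposited by the authors is a score with a chi-square distribution of 1 degree of freedom. P-values and adjusted p-values deposited by the authors matched the chi-square tail and the Benjamini-Hochberg adjustment over all rows to within 6.38e-15 and 3.55e-15. The file has 0 columns with values per sample, so nothing was refitted and the planned quasi-likelihood test was not used.

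Implied SEs, limits and library sizes were computed in Python 3.11.15 with scipy 1.17.1. Library sizes were solved from the averages of single-read genes with a prior count of 2 and 1 dispersion, 0.0533. As a check, 76 of 78 levels computed for 2 reads were present within 1e-05. The steps were tested on simulated data with 1 dispersion for all genes, which cannot check the spread of the authors' fit. Transcript lengths and exon overlaps came from Ensembl release 115 gene models, where nos is listed as nanos. Members and lists were chosen with earlier results of these data known. Named genes are all members, InR and, in each list by role, up to 3 with the smallest p. The genes vas, hb, cad, ems, tll and elav, the digestive genes called on the negative side and the genes sharing exons were named after values were seen. Alternatives were an adjusted p under 0.01, an unadjusted p under 0.05, a 2-fold minimum, p-values adjusted over genes of at least 1 or 16 CPM, and centring on the median gene of at least 16 CPM.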

Additional observations from a re-analysis of the deposited data

How the results depend on the processing

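The number of members called was 0 under an adjusted p under 0.01, an unadjusted p under 0.05, a 2-fold minimum, and p-values adjusted over the 8732 genes of 1 CPM or more or the 6398 of 16 CPM or more. The lowest adjusted p of a member was 0.672 and 1 in those last settings. The number of all genes called was 667, and 344 with p-values adjusted over the genes of 1 CPM or more, a setting with fewer genes tested. It was 490 at an adjusted p under 0.01 and 569 with a 2-fold minimum. No list by role had a call at an adjusted p under 0.01, with a 2-fold minimum or with p-values adjusted over the genes of 1 CPM or more, the settings run for lists. Subtracting the median of the genes of 16 CPM or more, 0.02 on the log2 scale, left the sign of all 10 fold changes as it was, with nos at 0.41 and pgc at -0.03.

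No paired analysis was possible because the table holds no values per sample, and for the same reason leaving out replicates and DESeq2 were not run. The spread is that of the authors' fit over 12 libraries, and the intervals treat the likelihood ratio test as a Wald test.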
